A study of Homo sapiens with 8 samples.

Results

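The PLKO and V71 lines of SHSY5Y, a human neuroblastoma cell line of neural crest origin, are stable lines that were compared in the undifferentiated state, and the comparison rests on 4 of the 8 Affymetrix Human Gene 1.0 ST arrays of the series. All 4 arrays are labelled undifferentiated (NDF); their titles carry the code PLKO (replicates 2 and 3) or V71 (replicates 2 and 3), so each line has 2 arrays. The members are the 19310 rows of the value table that carry exactly 1 gene, of 28869 rows in all. They give 18377 genes; where a gene has several rows, the brightest on average stands for it. Values are deposited RMA values on a log2 scale, and every difference is V71 minus PLKO, so that a positive value is higher in the V71 line.

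Both lines were made by infection with virus, one with an shRNA and the other with the pLKO.1-Puro control vector, and both were kept under puromycin. The NDF cells of each line grew on laminin-coated plates in medium with serum. The other 4 arrays, labelled differentiated (DF), come from the same lines grown with retinoic acid and then with BDNF in serum-free medium, and carry the replicate numbers 1 and 2. The treatment label of the PLKO samples is the shRNA and that of the V71 samples is control, whereas pLKO.1-Puro was the vector of the control cells by the methods. The gene that the shRNA targets is not analysed here and did not settle the direction, so the lines are named by their title codes. With 1 line for each vector, the vector and other differences between both lines cannot be told apart.

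SHSY5Y cells resemble noradrenergic neuroblasts of the sympathetic lineage. Such cells store catecholamines and peptides in dense core vesicles, whose matrix is made of granins. Neuroblastoma cultures can also hold flat, adherent cells with a mesenchymal expression program, in which matrix proteins, integrins and factors such as SNAI2 are prominent. Cyclic AMP and cyclic GMP, the second messengers that phosphodiesterases degrade, are known to act on neurite growth and secretion in cells of this lineage.

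On average, markers of the labelled cell type stood above all genes in both lines. None of the 12 analysed noradrenergic neuroblastoma markers was below the lower quartile of its arrays (3.03 in both lines) in both groups. Of all 18377 genes only 2745 were, so this alone says little about the cell type. The mean over the marker list was 8.27 and 8.19 in the PLKO arrays and 8.41 and 8.52 in the V71 arrays. Over all genes it was 5.289 and 5.291 in the PLKO arrays and 5.282 and 5.297 in the V71 arrays. DBH, which converts dopamine to noradrenaline, had values of 9.32 and 9.21 in the PLKO arrays and 9.11 and 9.30 in the V71 arrays, and the lines overlapped. PHOX2A, a master factor of autonomic neurons, differed by 0.11 (adjusted p = 0.75). TH, the first enzyme of catecholamine synthesis, stood at 4.34 and 4.21 in the PLKO arrays and 4.49 and 4.33 in the V71 arrays. The median of all genes in PLKO was higher, at 5.34. Of the 12 noradrenergic markers, 2 (16.7%) were called higher in V71, against 0.615% of all genes, and none was called lower. These were CHGA and CHGB, higher by 0.99 and 0.79. Of 7 Schwann cell and glial, 5 melanocyte, 6 endothelial and 5 leukocyte markers, none was called in limma, and the melanocyte markers alone held any, 2, with an unadjusted p under 0.05. Across all genes the median difference between the lines was 0.012, and other normalizations of the arrays moved it by at most 0.008.

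Calls required an adjusted p below 0.05 together with a fold change of 1.5 or more. Of the 18377 genes, V71 had lower values than PLKO for 283 (1.54%) and higher values for 113 (0.615%). Of these 396 genes, 93 of the lower and 40 of the higher ones passed a 2-fold difference, and 12 and 5 passed a 4-fold one. The median difference was -0.83 among the lower and 0.85 among the higher genes. In none of the 396 did the values of the lines overlap, and they did not overlap in 8730 of all genes. By the annotation 383 of the called genes are protein coding, 6 are long noncoding RNAs and 2 are miRNA genes. In 16 of them only V71, and in 5 only PLKO, was below the lower quartile of its arrays, where background may set the size of the difference, and in 1 both were. Without moderation of the variance 73 lower and 26 higher genes were called. Leaving out 1 array at a time left 196 to 253 lower and 71 to 100 higher genes, the fewest higher genes, 71, without PLKO replicate 3.

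**Figure D1:**
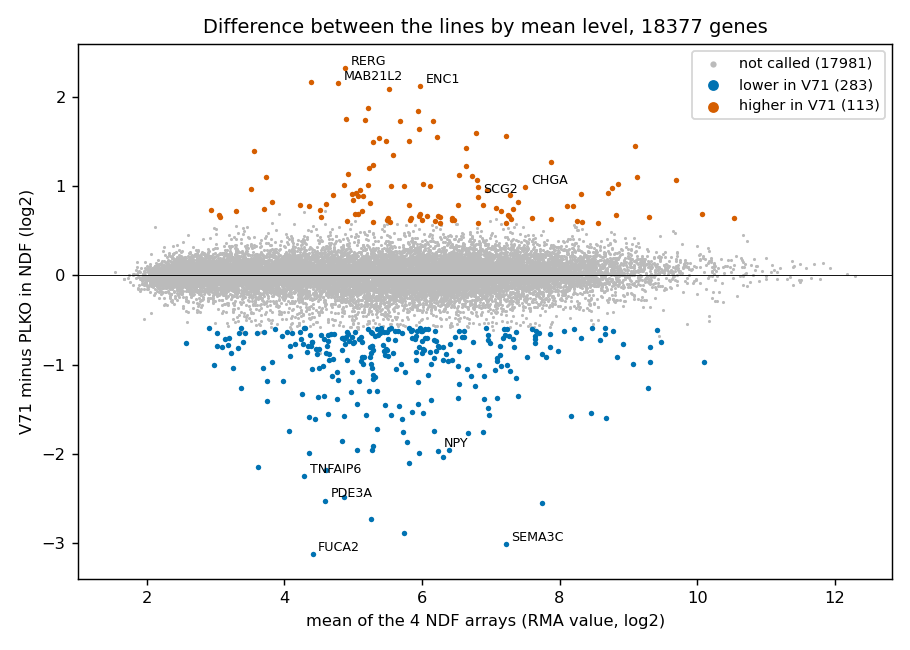
Mean of the 4 NDF arrays (RMA value, log2) on the x axis and the V71 minus PLKO difference in NDF (log2) on the y axis, 1 point per gene. The 283 lower genes (blue) and the 113 higher genes (orange) lie at low, middle and high means, and the 17981 genes that were not called (grey) lie mostly near 0; the median over all genes is 0.012.

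The genes with the largest negative differences were led by the secreted fucosidase FUCA2, whose values were 6.01 and 5.94 in the PLKO arrays and 2.86 and 2.83 in the V71 arrays. Its V71 values lay below the lower quartile of the arrays, so the difference of -3.13 may be set by background. PDE3A, a phosphodiesterase of cyclic AMP that cyclic GMP inhibits, had values of 5.73 and 5.98 in the PLKO arrays and 3.33 and 3.33 in the V71 arrays, a difference of -2.53 (standard error 0.10, adjusted p = 5.83e-06). Its PLKO arrays were 0.25 apart, and the lines did not overlap. TNFAIP6, a secreted hyaluronan-binding protein, stood at 5.14 and 5.69 in the PLKO arrays and 3.23 and 3.10 in the V71 arrays and was lower, at -2.25 (adjusted p = 9.48e-05). EPB41L4A, of the band 4.1 family that ties membrane proteins to the cytoskeleton, had values of 5.66 and 5.74 in the PLKO arrays and 3.49 and 3.56 in the V71 arrays, a difference of -2.18 (adjusted p = 6.57e-06). The arrays of a line were 0.078 apart in PLKO and 0.073 apart in V71.

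TRIB2, a pseudokinase of the tribbles family, read 6.94 and 6.97 in the PLKO arrays and 4.76 and 5.18 in the V71 arrays, a difference of -1.99 (standard error 0.13, adjusted p = 3.92e-05). PKHD1 encodes fibrocystin, a membrane protein of the primary cilium, and read 5.33 and 5.38 in the PLKO arrays and 3.38 and 3.35 in the V71 arrays, lower, at -1.99 (adjusted p = 5.83e-06). The remaining genes among the 15 lowest were SEMA3C, TFPI2, ENPP2, PDGFRA, TNR, DCN, CDH11, GNG11 and NPY, with differences from -3.01 to -1.97. Those of TNFAIP6, TRIB2 and NPY lost their calls without moderation, with adjusted p of 0.0788, 0.053 and 0.0649.

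Among the largest positive differences, MAB21L2, a nuclear factor of eye and neural development, had values of 4.09 and 3.31 in the PLKO arrays and 5.92 and 5.80 in the V71 arrays. The PLKO arrays differed by 0.78, the widest gap within a line among the 15 highest genes, and the difference of 2.16 had a standard error of 0.21 (adjusted p = 0.000524). ARHGEF28, a guanine nucleotide exchange factor that also binds RNA, stood at 4.54 and 4.01 in the PLKO arrays and 6.19 and 6.11 in the V71 arrays, higher by 1.88 (adjusted p = 0.000144). EDIL3, a secreted integrin ligand, had values of 4.83 and 4.81 in the PLKO arrays and 6.65 and 6.45 in the V71 arrays, a difference of 1.73 (standard error 0.10, adjusted p = 1.97e-05). For each of these genes the lower V71 array was above the higher PLKO array by 1.57 or more.

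INSM2, a zinc finger factor related to the neuroendocrine factor INSM1, read 5.94 and 6.03 in the PLKO arrays and 7.63 and 7.53 in the V71 arrays, a difference of 1.59 (adjusted p = 0.000126). NELL2, a secreted glycoprotein of neurons with EGF-like repeats, read 6.37 and 6.498 in the PLKO arrays and 8.03 and 7.97 in the V71 arrays, higher by 1.57 (adjusted p = 9.42e-05). VSNL1, a neuronal calcium sensor that binds membranes when loaded with calcium, had 5.39 and 5.49 in the PLKO arrays and 7.01 and 6.98 in the V71 arrays, a difference of 1.56 (standard error 0.089, adjusted p = 1.97e-05). The remaining genes among the 15 highest were RERG, CNTNAP4, ENC1, CADPS, SEMA3A, PTPRR, NTNG1 and the histone genes H4C6 and H2BC12, from 2.32 for RERG to 1.64 for NTNG1. MAB21L2, ARHGEF28, INSM2, NELL2, SEMA3A and H4C6 were not called without moderation, at adjusted p of 0.126, 0.0822, 0.0687, 0.0604, 0.0658 and 0.0687.

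**Figure D2:**
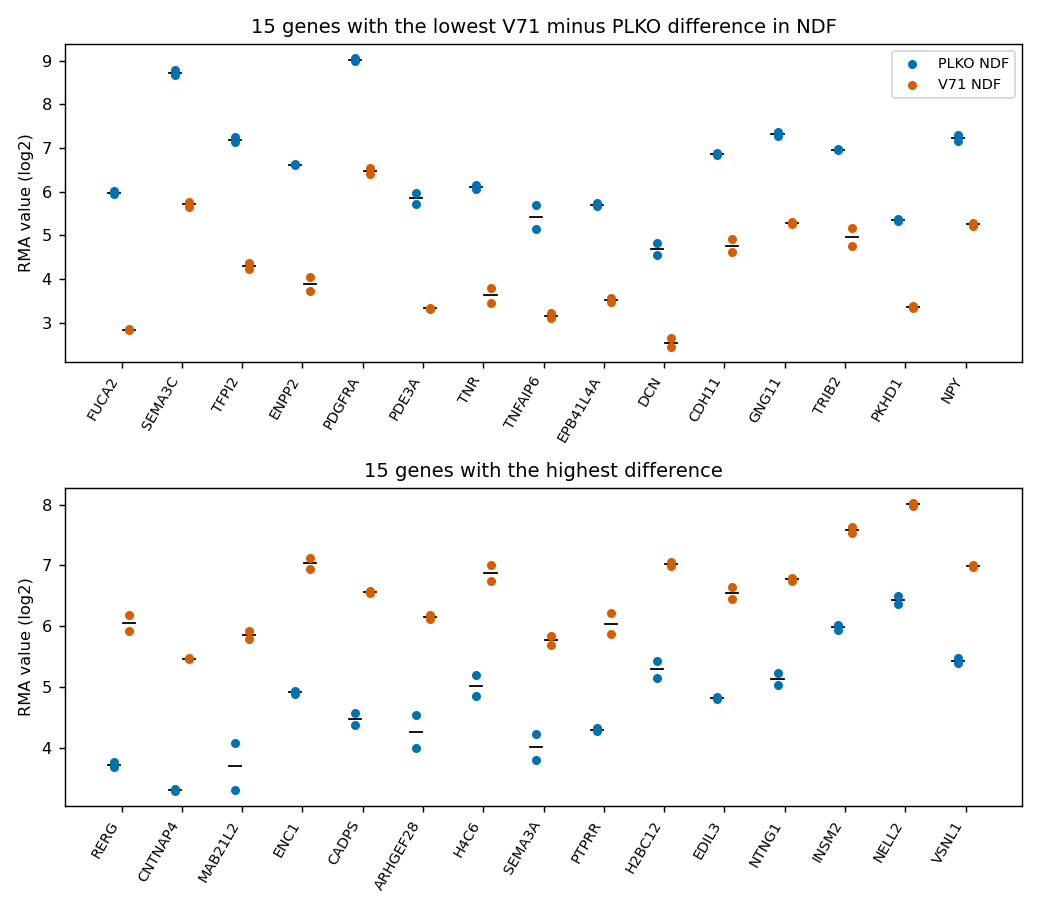
RMA values (log2, y axis) of the 4 NDF arrays for the 15 called genes with the lowest (upper panel) and the 15 with the highest V71 minus PLKO difference (lower panel); blue points are the 2 PLKO arrays, orange points the 2 V71 arrays and black bars group means. The lines do not overlap for any of these genes, and the PLKO arrays of MAB21L2, at 4.09 and 3.31, lie farthest apart.

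The enzymes of cyclic nucleotide breakdown that were called were lower in V71. Of 22 analysed phosphodiesterases, 4 (18.2%) were lower and none was higher, against 1.54% lower among all genes, and the median over the list was -0.045. PDE3A had the largest difference, given above. PDE5A, which degrades cyclic GMP, had values of 5.27 and 5.34 in the PLKO arrays and 4.29 and 4.15 in the V71 arrays, a difference of -1.08 (standard error 0.10, adjusted p = 0.000324). The cyclic AMP enzymes PDE7B and PDE4D were lower, at -0.83 (adjusted p = 0.000773) and -0.72 (adjusted p = 0.00878). PDE3B, the closest relative of PDE3A, stood at -0.18 (adjusted p = 0.547) and PDE10A at 0.14 (adjusted p = 0.576); neither was called. PDE4D was not called without PLKO replicate 2 (adjusted p = 0.0785), without V71 replicate 2 (adjusted p = 0.0511) or without V71 replicate 3 (adjusted p = 0.0655). Without moderation PDE5A and PDE4D lost their calls (adjusted p = 0.0604 and 0.175).

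On the side of cyclic AMP synthesis and its kinase, 1 of 20 analysed genes was called, CREB5, a transcription factor that binds the cyclic AMP response element, at -0.67 (adjusted p = 0.00463). CREB5 lost its call without PLKO replicate 3 (adjusted p = 0.0638). Of 29 analysed subunits of heterotrimeric G proteins, both called genes were gamma subunits, and they differed in opposite directions. GNG11 had values of 7.28 and 7.38 in the PLKO arrays and 5.31 and 5.27 in the V71 arrays, a difference of -2.04 (standard error 0.12, adjusted p = 2.52e-05). GNG3, a gamma subunit of neurons, had 6.38 and 6.25 in the PLKO arrays and 7.27 and 7.35 in the V71 arrays, a difference of 0.99 (adjusted p = 0.000546). CREB5 and GNG3 were not called without moderation (adjusted p = 0.0962 and 0.0687).

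CHGA, CHGB and SCG2, granins that fill dense core vesicles, were higher in V71, while NPY was lower. Of 28 analysed granin, neuropeptide and peptide processing genes, 5 (17.9%) were higher, against 0.615% of all genes, and 1 (3.57%) was lower. Chromogranin A (CHGA) had values of 7.07 and 6.95 in the PLKO arrays and 7.90 and 8.09 in the V71 arrays, a difference of 0.99 (standard error 0.092, adjusted p = 0.00035). Chromogranin B (CHGB) read 6.59 and 6.39 in the PLKO arrays and 7.17 and 7.38 in the V71 arrays, higher by 0.79 (adjusted p = 0.00924). Secretogranin II (SCG2), the precursor of secretoneurin, read 6.48 and 6.28 in the PLKO arrays and 7.30 and 7.21 in the V71 arrays, higher by 0.88 (adjusted p = 0.00135). The V71 arrays thus stood above the PLKO arrays by 0.58 or more in CHGA, CHGB and SCG2, but not in every granin. SCG5, the chaperone of prohormone convertase 2, had 4.32 and 4.41 in the PLKO arrays and 5.56 and 5.43 in the V71 arrays, a difference of 1.13 (adjusted p = 0.00221).

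ADM, which encodes the vasodilator peptide adrenomedullin, had values of 5.94 and 5.92 in the PLKO arrays and 7.30 and 7.42 in the V71 arrays, a difference of 1.43 (standard error 0.085, adjusted p = 2.22e-05). NPY, the peptide that sympathetic neurons release with noradrenaline, had values of 7.29 and 7.16 in the PLKO arrays and 5.23 and 5.28 in the V71 arrays, a difference of -1.97 (standard error 0.14, adjusted p = 6.62e-05). NPY was the only called gene of the list with lower values in V71. An unadjusted p under 0.05 in limma was found for 10 genes of the list, 4 lower and 6 higher in V71. Other granins, vesicle proteins and peptides were not called. Among them SCG3 stood at 0.003, VGF at -0.19, galanin (GAL) at -0.18 and proenkephalin (PENK) at 0.081. Carboxypeptidase E (CPE) stood at 0.073 and the amidating enzyme PAM at -0.37. The adjusted p of these named genes ran from 0.0535 for PAM to 0.994 for SCG3. The call of CHGB ended without PLKO replicate 3 (adjusted p = 0.111) or without V71 replicate 3 (adjusted p = 0.0754). The calls of CHGB, SCG2, SCG5 and NPY ended without moderation (adjusted p = 0.197, 0.0866, 0.152 and 0.0649).

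**Figure D3:**
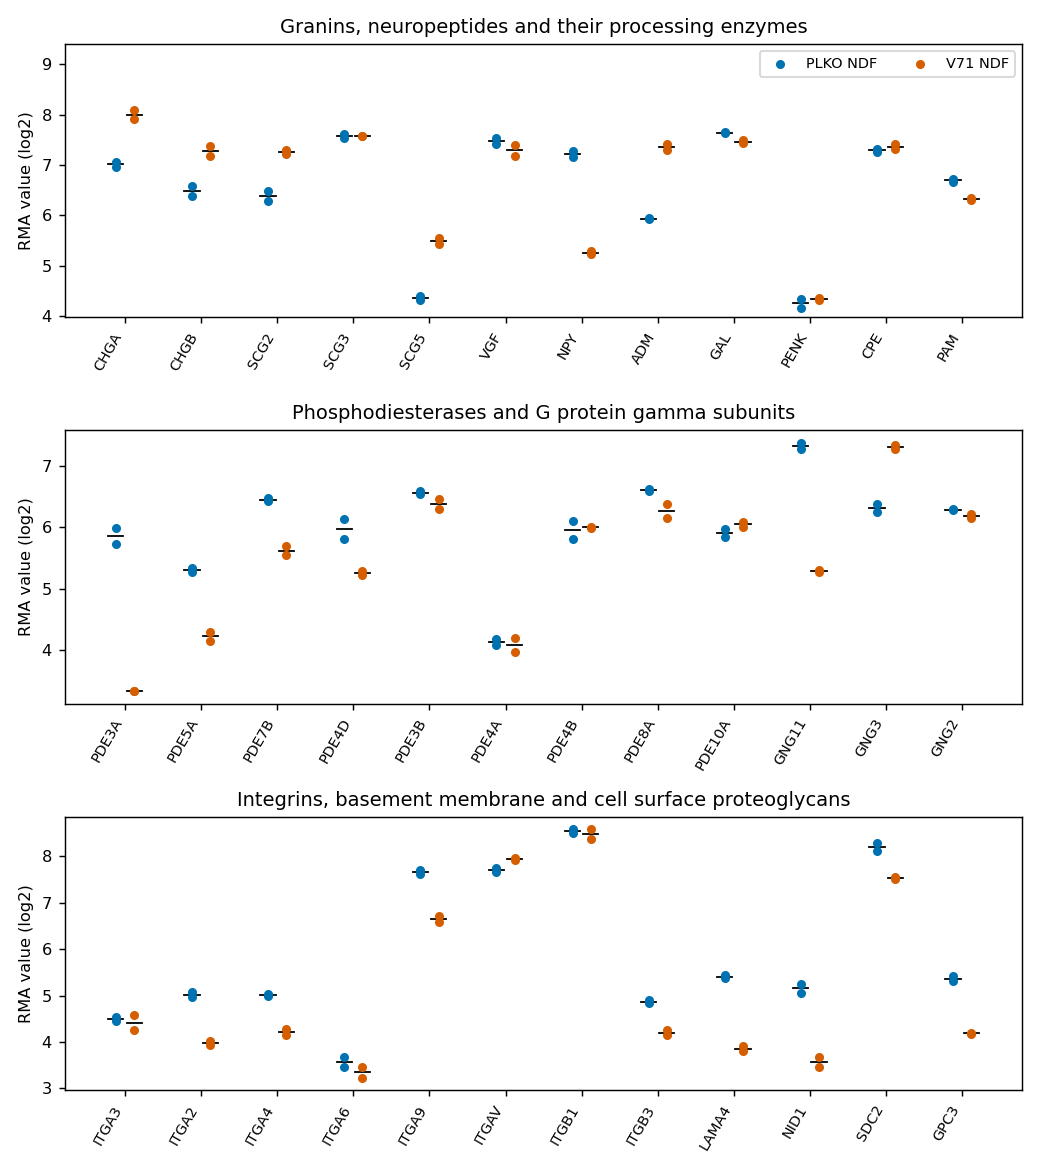
RMA values (log2, y axis) of the 4 NDF arrays for members of 3 groups of genes, called or not; blue points are the 2 PLKO arrays, orange points the 2 V71 arrays and black bars group means. CHGA, CHGB, SCG2, SCG5 and ADM are higher and NPY is lower in V71 (top), PDE3A and GNG11 are lower and GNG3 is higher (middle), and ITGA2, ITGA4, ITGA9, ITGB3, LAMA4, NID1, SDC2 and GPC3 are lower (bottom).

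Proteases of the matrix and the cell surface, their relatives and inhibitors were mostly lower where they were called. Of 47 analysed genes, 7 (14.9%) were lower and 2 (4.26%) were higher, against 1.54% and 0.615% of all genes, and the median over the list was -0.037. PRSS12, the neuronal protease neurotrypsin that cleaves agrin, had values of 8.99 and 8.92 in the PLKO arrays and 7.31 and 7.45 in the V71 arrays, a difference of -1.58 (standard error 0.086, adjusted p = 1.42e-05). ADAMTS9, which cleaves large proteoglycans, read 9.28 and 9.17 in the PLKO arrays and 7.65 and 7.72 in the V71 arrays, lower, at -1.54 (adjusted p = 1.42e-05). ADAMTS19, of the same family, read 6.45 and 6.36 in the PLKO arrays and 5.01 and 4.86 in the V71 arrays, lower, at -1.47 (adjusted p = 2.73e-05). Within each line the arrays of these proteases were at most 0.15 apart. ADAMTS5, an aggrecanase, was lower, at -0.74 (adjusted p = 0.00182). DPP10, an inactive member of the dipeptidyl peptidase family that modulates potassium channels, was lower, at -1.57 (adjusted p = 1.33e-05).

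The inhibitors went both ways. TFPI2, a Kunitz-type inhibitor deposited in the matrix, stood at -2.89 (adjusted p = 3.54e-06), and TIMP3, the matrix-bound metalloprotease inhibitor, at -0.60 (adjusted p = 0.0106). TIMP1 had values of 6.91 and 6.68 in the PLKO arrays and 7.39 and 7.64 in the V71 arrays, higher by 0.72 (adjusted p = 0.0231). TIMP2 stood at 0.10 (adjusted p = 0.807) and its lines overlapped. The other higher gene was MME, the cell surface protease neprilysin, at 0.82 (adjusted p = 0.000469). TIMP3 was not called with the mean of its rows (difference -0.43), without PLKO replicate 2 (adjusted p = 0.115), without PLKO replicate 3 (adjusted p = 0.0747) or without V71 replicate 3 (adjusted p = 0.0747). TIMP1 lost its call without PLKO replicate 2 (adjusted p = 0.0673), without PLKO replicate 3 (adjusted p = 0.232) or without V71 replicate 3 (adjusted p = 0.152). ADAMTS5, TIMP3 and TIMP1 lost their calls without moderation (adjusted p = 0.0634, 0.138 and 0.257); these 3 genes were chosen after their values were seen.

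Receptors for the matrix were lower where they were called. Of 18 analysed integrins, 4 (22.2%) were lower, against 1.54% of all genes, and none was higher, and the mean over the list was 4.55 and 4.49 in the PLKO arrays and 4.31 and 4.40 in the V71 arrays. ITGA2, the alpha chain of a collagen receptor, had values of 4.97 and 5.07 in the PLKO arrays and 3.94 and 4.03 in the V71 arrays, a difference of -1.03 (adjusted p = 0.00081). ITGA9 and ITGA4, related alpha chains that bind fibronectin splice forms, tenascin or VCAM1, were lower, at -1.01 (adjusted p = 0.00019) and -0.79 (adjusted p = 0.00114). ITGB3, the partner of the alpha V chain, was lower, at -0.67 (adjusted p = 0.00347). The common beta 1 chain ITGB1 had 8.58 and 8.498 in the PLKO arrays and 8.59 and 8.37 in the V71 arrays, overlapping values, and ITGAV stood at 0.23 (adjusted p = 0.263). The call of ITGB3 ended without PLKO replicate 2 (adjusted p = 0.0522). Without moderation the calls of ITGA2, ITGA4 and ITGB3 ended (adjusted p = 0.0891, 0.0553 and 0.0777).

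Of 14 analysed laminin and basement membrane genes, 2 (14.3%) were lower. NID1, which links laminin to collagen IV, had values of 5.25 and 5.05 in the PLKO arrays and 3.45 and 3.68 in the V71 arrays, a difference of -1.59 (standard error 0.14, adjusted p = 0.000209). The laminin alpha chain LAMA4 read 5.44 and 5.37 in the PLKO arrays and 3.91 and 3.80 in the V71 arrays, lower, at -1.56 (adjusted p = 3.26e-05). The laminin chains LAMB1, at -0.03, and LAMC1, at 0.026, overlapped between the lines. Of 37 analysed collagens none was called in limma and 4 had an unadjusted p under 0.05, with differences between -0.39 and 0.14. COL1A1 stood at -0.057 and COL3A1 at -0.26.

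Of 9 analysed glypicans and syndecans, the heparan sulfate proteoglycans of the cell surface, 2 were lower. GPC3 had values of 5.30 and 5.42 in the PLKO arrays and 4.20 and 4.17 in the V71 arrays, a difference of -1.18 (standard error 0.093, adjusted p = 0.000121), and SDC2 was lower, at -0.66 (adjusted p = 0.0124). Matrix glycoproteins went both ways: of 35 analysed, MFAP4 of the microfibrils and fibronectin (FN1) were lower, at -0.93 (adjusted p = 0.000469) and -0.72 (adjusted p = 0.0155). EDIL3, NELL2 and NELL1 were higher, NELL1 by 1.003 (adjusted p = 0.000148). SDC2 was not called without PLKO replicate 3 (adjusted p = 0.141), without V71 replicate 2 (adjusted p = 0.0892) or without V71 replicate 3 (adjusted p = 0.0619). FN1 lost its call without PLKO replicate 2 (adjusted p = 0.141), without PLKO replicate 3 (adjusted p = 0.0963) or without V71 replicate 2 (adjusted p = 0.0996). Neither SDC2 nor FN1 nor NID1 was called without moderation (adjusted p = 0.185, 0.222 and 0.0827).

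A small number of transcription factors of either cell state were called. Of 34 analysed mesenchymal factors, 3 (8.82%) were lower and none was higher, and of 19 analysed adrenergic factors, 2 (10.5%) were higher and none was lower, against 1.54% lower and 0.615% higher among all genes. The first of these lists had a median of 0.018 and the second of 0.049, beside 0.012 over all genes. SNAI2, the neural crest factor also called Slug, had values of 6.43 and 6.61 in the PLKO arrays and 4.92 and 4.91 in the V71 arrays, a difference of -1.61 (standard error 0.094, adjusted p = 2.1e-05). SMAD3, which carries TGF-beta signals, and the receptor NOTCH2 were lower, at -0.80 (adjusted p = 0.00192) and -0.70 (adjusted p = 0.00331). TWIST1 stood at -0.11 and PRRX1 at 0.22. Neither was called, and PRRX1 was below the lower quartile in PLKO. SNAI1 had the highest difference of the list, 0.58 (adjusted p = 0.0906), opposite in sign to SNAI2, and was not called.

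DACH1, a factor of the retinal determination network, had values of 4.49 and 4.60 in the PLKO arrays and 6.04 and 6.05 in the V71 arrays, a difference of 1.499 (standard error 0.093, adjusted p = 2.73e-05). HAND1, a bHLH factor related to HAND2, had 6.57 and 6.36 in the PLKO arrays and 7.38 and 7.45 in the V71 arrays, a difference of 0.95 (adjusted p = 0.000713). Core factors of the sympathetic lineage were not called: HAND2 stood at 0.18, GATA3 at 0.44 and GATA2 at -0.073. GATA3 had an adjusted p of 0.0358 with a difference below the 1.5-fold threshold. HAND1, SMAD3 and NOTCH2 lost their calls without moderation (adjusted p = 0.075, 0.0861 and 0.085).

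Some markers of fibroblasts were lower beside the matrix genes. Of 10 analysed fibroblast markers, 3 (30%), DCN, LUM and FN1, were lower, against 1.54% of all genes, and none was higher. The mean over the list was 4.62 and 4.65 in the PLKO arrays and 4.19 and 4.32 in the V71 arrays. DCN and LUM lie next to each other on chromosome 12. The small proteoglycans decorin (DCN) and lumican (LUM) had V71 values below the lower quartile, at 2.45 and 2.65 for DCN and 2.42 and 2.52 for LUM. COL1A1, COL1A2 and COL3A1, which define the type, stood at -0.057, -0.04 and -0.26 and were not called. The remaining markers THY1, POSTN, PDGFRB and FAP stood at 0.35, 0.12, 0.086 and -0.14 and were not called either. In bulk samples fewer cells of a type and less RNA per cell cannot be told apart. The part of such cells in the differences of the matrix genes was not tested. The call of LUM ended without PLKO replicate 3 (adjusted p = 0.0546). Without moderation the calls of FN1 and LUM ended (adjusted p = 0.222 and 0.171).

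**Figure D4:**
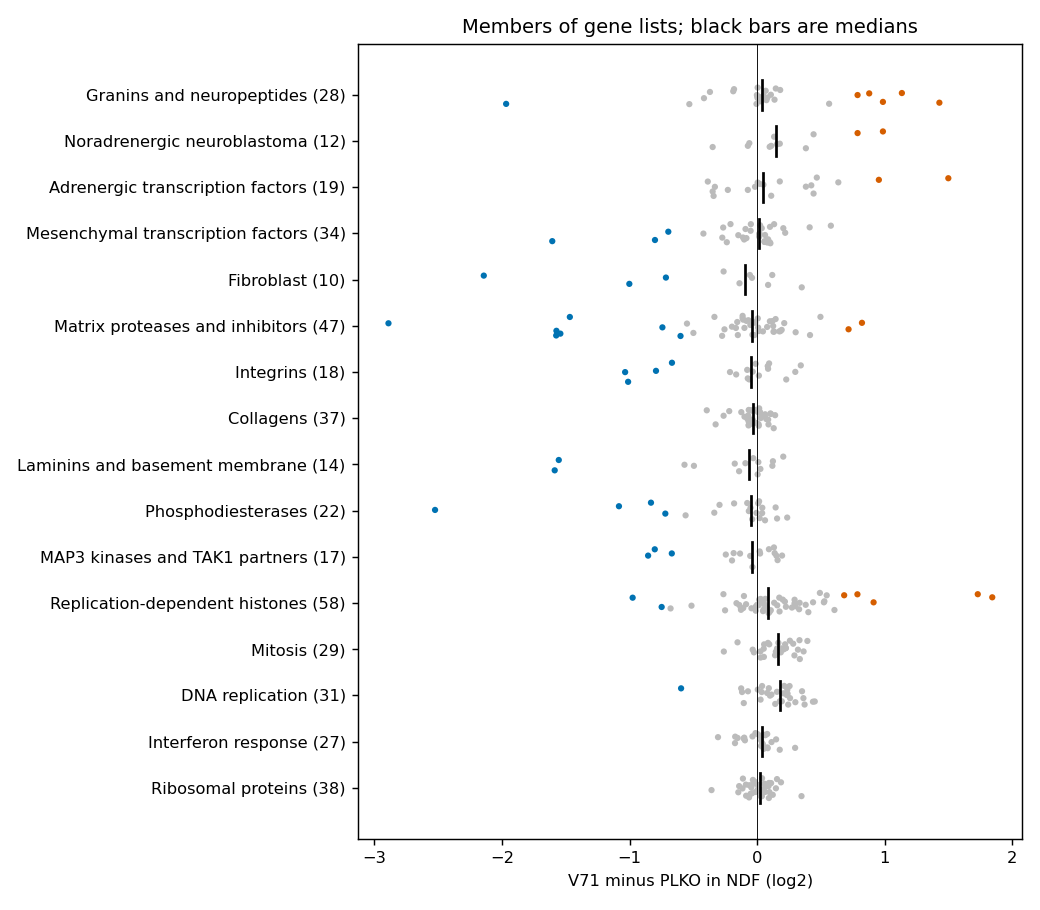
V71 minus PLKO differences in NDF (log2, x axis) for the analysed members of gene lists (y axis, number analysed in brackets); blue points are called lower, orange points called higher, grey points not called, and black bars are medians. The medians of the 16 lists drawn lie between -0.098 (fibroblast) and 0.18 (DNA replication), and the called members lie at the edges of lists whose other members centre near 0.

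Regulators of small GTPases included the highest gene of all. Of 41 analysed RAS family genes and regulators, RERG, a RAS-like GTPase, was the only called one, with values of 3.69 and 3.77 in the PLKO arrays and 6.18 and 5.92 in the V71 arrays. Of 38 guanine nucleotide exchange factors, among them the ARHGEF and DOCK families, 2 were lower and 1, ARHGEF28, was higher. DOCK9, which activates CDC42, had values of 5.41 and 5.49 in the PLKO arrays and 4.04 and 4.09 in the V71 arrays, a difference of -1.38 (standard error 0.085, adjusted p = 2.61e-05). TIAM2, which activates RAC, read 5.71 and 5.70 in the PLKO arrays and 4.79 and 4.80 in the V71 arrays, lower, at -0.91 (adjusted p = 0.00035). PTPRR, a phosphatase of MAP kinases, was the only called gene of 16 receptor-type tyrosine phosphatases.

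Of 17 analysed MAP3 kinases and partners of TAK1, 3 (17.6%) were lower and none was higher. MAP3K1, which activates JNK, had values of 9.74 and 9.68 in the PLKO arrays and 8.92 and 8.90 in the V71 arrays, a difference of -0.80 (adjusted p = 0.000738). MAP3K13, the leucine zipper kinase of axon injury signaling, stood at -0.85 (adjusted p = 0.0024) and the TAK1 adaptor TAB2 at -0.67 (adjusted p = 0.00195). Of 17 HIPPO pathway genes and TEAD factors, TEAD2, a DNA-binding partner of YAP, read 5.21 and 5.29 in the PLKO arrays and 3.91 and 3.89 in the V71 arrays, lower, at -1.35 (adjusted p = 4.44e-05), and FRMD6, an upstream FERM domain protein, was lower, at -0.92 (adjusted p = 0.00035). NFIB was the called 1 of 4 nuclear factor I genes, with values of 9.60 and 9.52 in the PLKO arrays and 8.53 and 8.59 in the V71 arrays and a difference of -0.997 (adjusted p = 0.00022); NFIA, NFIC and NFIX stood at -0.40, 0.092 and 0.13. MAP3K13 was not called without moderation (adjusted p = 0.115).

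Secreted signals and their receptors went both ways. Of 19 Wnt inhibitors and targets, 1 (5.26%) was lower and 2 (10.5%) were higher, beside shares of 1.54% and 0.615% over all genes. DKK2, which binds the Wnt coreceptors, read 6.36 and 6.14 in the PLKO arrays and 4.91 and 3.68 in the V71 arrays, with V71 arrays 1.23 apart and a difference of -1.95 (standard error 0.30, adjusted p = 0.00818). FRZB, a secreted Wnt antagonist, and LGR5, a receptor for R-spondin, were higher by 1.24 (adjusted p = 0.00835) and 0.98 (adjusted p = 0.000579). DKK2 was not called with a trended and robust prior (adjusted p = 0.124), in a fit of the 4 NDF arrays alone (adjusted p = 0.0519), without PLKO replicate 2 (adjusted p = 0.0864) or without PLKO replicate 3 (adjusted p = 0.056). FRZB lost its call without V71 replicate 2 (adjusted p = 0.066). Of 15 FGF ligands, 1 (6.67%), FGF7, was lower, at -0.70 (adjusted p = 0.00127). Of 30 TGF-beta and BMP ligands and receptors and their partners, 1 (3.33%), FSTL1, a secreted follistatin-like protein, was lower, at -0.62 (adjusted p = 0.0038). The call of FSTL1 ended without PLKO replicate 2 (adjusted p = 0.0522) or without V71 replicate 2 (difference -0.56). Without moderation DKK2, FRZB, LGR5 and FSTL1 lost their calls (adjusted p = 0.248, 0.234, 0.0687 and 0.054).

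Of 22 complement genes, the terminal components C7 and C6, which build the membrane attack complex, were lower. C7 had values of 9.49 and 9.44 in the PLKO arrays and 7.86 and 7.88 in the V71 arrays, a difference of -1.60 (standard error 0.093, adjusted p = 2.04e-05), and C6 one of -0.78 (adjusted p = 0.00288), its V71 values below the lower quartile. Of 16 lipoprotein receptors, VLDLR, a receptor for reelin, had 7.28 and 7.19 in the PLKO arrays and 8.49 and 8.53 in the V71 arrays and was higher by 1.27 (adjusted p = 4.14e-05), and LRP4, the agrin receptor, was lower, at -0.996 (adjusted p = 0.00081). Among 36 ABC transporters, ABCD2, which carries very long chain fatty acids into peroxisomes, read 7.66 and 7.89 in the PLKO arrays and 6.16 and 5.87 in the V71 arrays, lower, at -1.76 (adjusted p = 5.34e-05), and the lipid transporter ABCA12 was higher by 0.83 (adjusted p = 0.00083). None of 11 fatty acid and retinoid binding proteins was called in limma and 1 had an unadjusted p under 0.05, with differences from -0.33 to 0.15. Calls of C6, LRP4 and ABCD2 did not hold without moderation (adjusted p = 0.106, 0.0847 and 0.054).

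Genes of excitability and release went both ways. Of 15 nicotinic receptor subunits, CHRNA3, the alpha subunit of autonomic ganglia, had values of 8.62 and 8.52 in the PLKO arrays and 9.61 and 9.75 in the V71 arrays and was the only called one, at 1.11. CHRNB4 and CHRNA5, its neighbours in the same gene cluster, stood at 0.55 (adjusted p = 0.0203) and 0.25 (adjusted p = 0.195), under the fold threshold; CHRNB4 was called without V71 replicate 2, at 0.68 (adjusted p = 0.0189). Of 18 neuronal calcium sensors and buffers, VSNL1 was higher and NECAB2, a calcium-binding protein of striatal and other neurons, was lower, at -0.83 (adjusted p = 0.004). Of 21 synaptotagmins, the calcium sensors of exocytosis and their relatives, SYT4 read 9.25 and 9.32 in the PLKO arrays and 8.44 and 8.30 in the V71 arrays, lower, at -0.91 (adjusted p = 0.00037), and SYT16 was lower, at -0.75 (adjusted p = 0.00519). SYT1, the main sensor of fast release, stood at 0.37 (adjusted p = 0.0535). Of 28 tetraspanins, TSPAN18 was lower, at -0.76 (adjusted p = 0.00115) and CD9 was higher by 0.63 (adjusted p = 0.00278). NECAB2 was not called without PLKO replicate 3 (adjusted p = 0.0593). SYT16 lost its call without PLKO replicate 2 (adjusted p = 0.0535) or without PLKO replicate 3 (adjusted p = 0.062). NECAB2 and SYT16 were also not called without moderation (adjusted p = 0.144 and 0.142).

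Calls were few among genes of cell division, as among all genes, of which 1.54% were lower and 0.615% were higher. Of 29 mitotic genes none was called in limma and 8, all higher in V71, had an unadjusted p under 0.05, with a median of 0.17 and differences from -0.26 to 0.39, and their mean was 7.42 and 7.43 in the PLKO arrays and 7.61 and 7.54 in the V71 arrays. Of 31 DNA replication genes 1 (3.23%), the helicase subunit MCM3, was called. It had values of 8.54 and 8.47 in the PLKO arrays and 7.90 and 7.93 in the V71 arrays, a difference of -0.60 (adjusted p = 0.00674). The median of the list was 0.18 and 12 genes had an unadjusted p under 0.05, 11 of them higher in V71. None of 38 ribosomal proteins was called in limma, nor any of 27 interferon response genes, with medians of 0.024 and 0.040 and an unadjusted p under 0.05 for 2 genes of each list. Of 23 p53 targets, 2 (8.7%) were lower and none was higher. GADD45A, a growth arrest protein, and the death receptor TNFRSF10B stood at -0.62 (adjusted p = 0.0214) and -0.60 (adjusted p = 0.00847). Of 18 histone demethylases, KDM4C, which removes methyl groups from histone H3, had 6.81 and 6.76 in the PLKO arrays and 5.88 and 5.79 in the V71 arrays, a difference of -0.95 (adjusted p = 0.00035). The call of MCM3 ended without PLKO replicate 2 (adjusted p = 0.0882), without PLKO replicate 3 (adjusted p = 0.0571) or without V71 replicate 2 (adjusted p = 0.0565). GADD45A was not called in a fit of the 4 NDF arrays alone (adjusted p = 0.0691), without PLKO replicate 2 (adjusted p = 0.205), without PLKO replicate 3 (adjusted p = 0.0828) or without V71 replicate 2 (adjusted p = 0.123). TNFRSF10B lost its call without PLKO replicate 2 (adjusted p = 0.108) or without V71 replicate 2 (adjusted p = 0.0777). These 3 calls also ended without moderation (adjusted p = 0.0898, 0.225 and 0.115). GADD45A was also not called with a replicate block (adjusted p = 0.0527).

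Histone genes that are normally transcribed with DNA replication differed in both directions. Of 58 analysed genes of this family, gathered by their symbols, 5 (8.62%) were higher and 2 (3.45%) were lower, against 0.615% and 1.54% of all genes. H4C6 had values of 4.86 and 5.20 in the PLKO arrays and 7.003 and 6.74 in the V71 arrays, a difference of 1.84 (standard error 0.14, adjusted p = 9.21e-05), and H2BC12 had 5.43 and 5.16 in the PLKO arrays and 7.06 and 6.99 in the V71 arrays, a difference of 1.73 (adjusted p = 3.23e-05). H2BC11, H2AC25 and H2BC21 were higher by 0.91, 0.79 and 0.68, with adjusted p of 0.00157, 0.0036 and 0.0161. H4C4 and H4C2, histone H4 genes like H4C6, were lower, at -0.98 (adjusted p = 0.00838) and -0.75 (adjusted p = 0.0475). Similar copies can share probes. Probe sequences were not compared, so the gene behind each histone row is uncertain. The call of H2AC25 ended without PLKO replicate 2 (adjusted p = 0.0511). H2BC21 was not called in a fit of the 4 NDF arrays alone (adjusted p = 0.0628), without PLKO replicate 2 (adjusted p = 0.162) or without V71 replicate 3 (adjusted p = 0.104). H4C4 lost its call without PLKO replicate 3 (adjusted p = 0.0956) or without V71 replicate 3 (adjusted p = 0.0716). The call of H4C2 ended with a trended and robust prior (adjusted p = 0.0573), in a fit of the 4 NDF arrays alone (adjusted p = 0.113), without PLKO replicate 3 (adjusted p = 0.295), without V71 replicate 2 (adjusted p = 0.099) or without V71 replicate 3 (adjusted p = 0.25). All of these except H2BC12 lost their calls without moderation (adjusted p from 0.0687 for H4C6 to 0.345 for H4C2). Those outside the 15 highest were chosen after their values were seen. H4C2 was also not called with a replicate block (adjusted p = 0.0972).

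Some called genes are neighbours. By the order of the annotated genes of GRCh38.p14, 24 pairs of called genes lie next to each other among the genes analysed, 20 with the same and 4 with opposite directions. The number of such pairs among genes in random order was not computed, so the count does not show clustering. Pairs with the same direction are also favoured because 283 of the 396 called genes were lower. The pairs named here were chosen after their values were seen. On chromosome 5, ARHGEF28 and ENC1 were both higher, by 1.88 and 2.12, and SLC27A6, a fatty acid transporter, ISOC1 and ADAMTS19, also next to each other, were lower, at -1.30, -1.27 and -1.47. On the X chromosome MAGEA10, a cancer-testis gene and the only called one of 22 such genes, and GABRA3, a GABA-A receptor subunit, were higher by 1.54 and 1.503. FUCA2 and PHACTR2 on chromosome 6 were lower, at -3.13 and -1.30, and so were TIAM2 and the mitochondrial factor TFB1M, at -0.91 and -0.88. PIGK and the adenylate kinase AK5 on chromosome 1 opposed each other, at -1.30 and 1.02. Over the 23 chromosomes the median difference ran from -0.012 to 0.040. Of these genes SLC27A6, PHACTR2, TFB1M, PIGK, AK5, MAGEA10 and GABRA3 were not called without moderation (adjusted p = 0.0827, 0.0951, 0.152, 0.0649, 0.0827, 0.0632 and 0.0605).

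The called miRNA genes, MIR99A and MIR181A2, were both lower in V71, and their mature products are shown because each arm carries its own seed. The array row reads the transcript of the gene, not the arms. Of 173 analysed miRNA genes, these 2 (1.16%) were lower, a share near the 1.54% of all genes, none was higher, and 85 were below the lower quartile in both lines. The sequences are from RefSeq (GRCh38.p14), 5′ to 3′, with the seed, bases 2 to 8, in capitals.
hsa-miR-99a-5p: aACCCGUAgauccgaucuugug
hsa-miR-99a-3p: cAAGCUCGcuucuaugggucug
hsa-miR-181a-5p: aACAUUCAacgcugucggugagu
hsa-miR-181a-2-3p: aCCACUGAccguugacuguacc
No 2 of the 4 seeds are the same. MIR99A on chromosome 21 had values of 5.13 and 5.31 in the PLKO arrays and 4.75 and 4.26 in the V71 arrays, a difference of -0.71 (standard error 0.15, adjusted p = 0.0358). MIR181A2 on chromosome 9 had 5.94 and 5.90 in the PLKO arrays and 5.29 and 5.30 in the V71 arrays, a difference of -0.62 (adjusted p = 0.0372). Both were picked after their values were seen. MIR99A was not called after quantile normalization (adjusted p = 0.0523), after cyclic loess (adjusted p = 0.0524), in a fit of the 4 NDF arrays alone (adjusted p = 0.103), without PLKO replicate 2 (adjusted p = 0.122), without PLKO replicate 3 (adjusted p = 0.286) or without V71 replicate 3 (adjusted p = 0.138). MIR181A2 lost its call after quantile normalization (adjusted p = 0.0564), after median centring (adjusted p = 0.0546), after cyclic loess (adjusted p = 0.0626), without PLKO replicate 2 (adjusted p = 0.239), without PLKO replicate 3 (adjusted p = 0.206), without V71 replicate 2 (adjusted p = 0.162) or without V71 replicate 3 (adjusted p = 0.149). Without moderation the adjusted p were 0.306 and 0.286. MIR99A was also not called with a replicate block (adjusted p = 0.0736).

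The promoters of FUCA2 and TFPI2, 2 of the 3 lowest genes, are shown because both hold a match to the AP-1 motif, and that of ARHGEF28, among the 15 highest, because it holds an ETS motif. Each is the window of 300 bases that spans the annotated gene start (RefSeq, GRCh38.p14), 5′ to 3′ on the strand of the gene, with motif matches in capitals. The promoters of SEMA3C, CNTNAP4 and CADPS, which were read by the same rule, held none of the motifs searched and are not shown.
FUCA2 (chr6:143511671-143511970, minus strand): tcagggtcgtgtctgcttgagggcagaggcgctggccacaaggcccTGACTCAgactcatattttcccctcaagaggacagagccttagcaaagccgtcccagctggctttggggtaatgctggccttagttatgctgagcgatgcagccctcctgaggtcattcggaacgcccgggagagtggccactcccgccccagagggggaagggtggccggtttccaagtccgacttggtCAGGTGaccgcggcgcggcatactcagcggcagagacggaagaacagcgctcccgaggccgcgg
TFPI2 (chr7:93890704-93891003, minus strand): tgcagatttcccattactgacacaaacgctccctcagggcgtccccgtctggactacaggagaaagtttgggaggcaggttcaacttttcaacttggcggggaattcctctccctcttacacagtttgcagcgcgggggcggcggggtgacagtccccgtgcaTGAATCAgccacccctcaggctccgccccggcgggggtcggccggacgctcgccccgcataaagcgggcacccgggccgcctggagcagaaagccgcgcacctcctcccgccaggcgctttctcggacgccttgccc
ARHGEF28 (chr5:73625946-73626245, plus strand): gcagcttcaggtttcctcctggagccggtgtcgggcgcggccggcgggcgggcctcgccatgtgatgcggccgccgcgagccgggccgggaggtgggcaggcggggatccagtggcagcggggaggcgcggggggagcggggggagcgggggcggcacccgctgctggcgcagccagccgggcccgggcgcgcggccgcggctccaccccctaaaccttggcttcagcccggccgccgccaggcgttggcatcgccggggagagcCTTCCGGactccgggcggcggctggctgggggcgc
The 4 motifs searched on both strands were AP-1 (TGANTCA), the cyclic AMP response element (TGACGTCA), the E-box bound by Snail factors (CACCTG) and ETS (CCGGAAG). AP-1 was found in 5.59% of 14208 promoters of analysed genes, in 7.02% of 228 of lower genes and in 2.33% of 86 of higher genes. The cyclic AMP response element was in 2.65%, 3.51% and 2.33%, and the E-box in 19.6%, 14.9% and 15.1%. The ETS motif was in 14.6% of all promoters, in 5.7% of those of lower genes and in 4.65% of those of higher genes. A match describes the letters in these windows and is not a binding site by itself.

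The same contrast in the DF arrays was set beside the NDF values, for genes that were chosen by their NDF call. In DF 563 genes (3.06%) were called in either direction, and for 256 of all genes (1.39%) the V71 minus PLKO difference itself differed between NDF and DF by the interaction test. Of the 283 genes lower in NDF, 102 were also lower in DF, 12 were higher and 169 were not called. Of the 113 higher genes, 63 were also higher in DF, 0 were lower and 50 were not called. The median DF difference was -0.41 for the lower and 0.68 for the higher genes. The interaction was called for 87 of the lower and 24 of the higher genes. The line difference was more negative in NDF than in DF for 83 of the first and more positive for 19 of the second. Choosing genes by their NDF difference favours both this split and smaller differences in DF, since the interaction holds that same NDF difference. Genes that turned direction are among the 83, and some of these, such as PDE5A, differed more in DF. The number of genes with a called interaction, 256, ranged from 120 to 163 when 1 of the NDF arrays was left out, the fewest without PLKO replicate 3, and was 3 without moderation.

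Several regulators were lower in V71 in NDF and higher in DF. PDE5A had a difference of -1.08 in NDF and of 1.83 in DF, -2.92 between them (standard error 0.14, adjusted p = 5.75e-05). SGK1, a kinase induced by serum and glucocorticoids, stood at -1.86 in NDF, with values of 6.82 and 6.61 in the PLKO arrays and 4.83 and 4.88 in the V71 arrays, and at 0.63 in DF (adjusted p of the interaction = 0.000108). EFNB2, a membrane-bound ligand of Eph receptors, stood at -0.69 and 1.33 (interaction adjusted p = 0.000121). RTL1, an imprinted gene derived from a retrotransposon, stood at -1.01 and 0.88 (interaction adjusted p = 0.000392), and GPC3 at -1.18 and 0.67 (interaction adjusted p = 0.000206). The interaction calls of these 5 genes held when any NDF array was left out but not without moderation, where the NDF calls of PDE5A, EFNB2 and RTL1 also ended (adjusted p = 0.0604, 0.0604 and 0.093).

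Other genes differed between the lines in NDF and were not called in DF. PDE3A stood at -2.53 in NDF and -0.13 in DF (interaction adjusted p = 0.000121), GNG11 at -2.04 and -0.27 (interaction adjusted p = 0.00134) and the raft protein RFTN1 at -1.54 and 0.39 (interaction adjusted p = 0.000107). PRSS12 stood at -1.58 and -0.093 (interaction adjusted p = 0.000392), SNAI2 at -1.61 and -0.49 (interaction adjusted p = 0.00408), and SYT4 at -0.91 and 0.42 (interaction adjusted p = 0.000777). RFTN1, SNAI2 and SYT4 missed the DF call by the fold threshold alone, with DF adjusted p of 0.0211, 0.0164 and 0.0225 in limma. Among the higher genes, CADPS, which primes dense core vesicles for release, stood at 2.09 and -0.27 (interaction adjusted p = 9.28e-05), EDIL3 at 1.73 and -0.28 (interaction adjusted p = 0.000206) and ADM at 1.43 and -0.11 (interaction adjusted p = 0.000346). SCG5 and ABCA12 were higher in both conditions and more so in DF, at 1.13 and 2.77 (interaction adjusted p = 0.00435) and at 0.83 and 2.30 (interaction adjusted p = 0.000458). These 11 interaction calls held when any NDF array was left out, and without moderation that of RFTN1 alone did. RFTN1 has another row, at -0.0125 in NDF; with the mean of its rows the gene stood at -0.78 in NDF, with an interaction of -0.96 (adjusted p = 0.00687).

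For 91 lower and 57 higher genes the call was made in both conditions in the same direction and the interaction was not called. FUCA2 stood at -3.13 in NDF and -2.48 in DF, EPB41L4A at -2.18 and -2.001, and DPP10 at -1.57 and -1.56. MAB21L2 stood at 2.16 and 2.31, VSNL1 at 1.56 and 1.71, and DACH1 at 1.499 and 1.72. An interaction that misses the threshold does not show that the differences were equal; the standard error of the difference between conditions was 0.30 for MAB21L2 and 0.12 for DPP10.

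**Figure D5:**
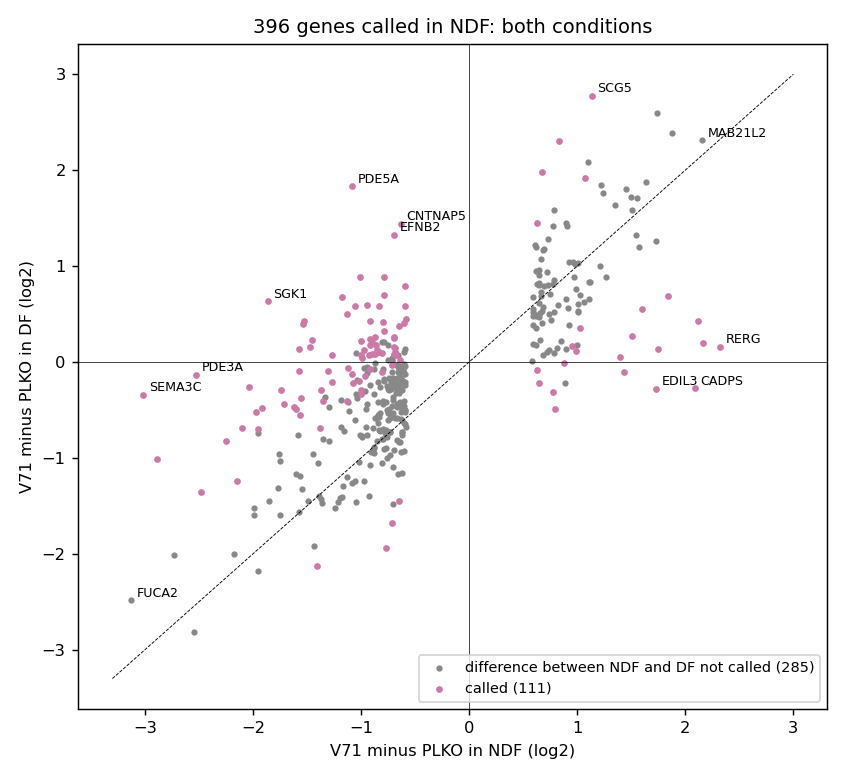
V71 minus PLKO difference in NDF (log2, x axis) and in DF (log2, y axis) for the 396 genes called in NDF; pink points are the 111 genes with a called interaction, grey points the 285 others, and the dashed line marks equal differences. PDE5A, EFNB2, CNTNAP5 and SGK1 lie left of 0 and above 0, PDE3A, SEMA3C, RERG and CADPS lie near the horizontal axis, and FUCA2 and MAB21L2 lie close to the dashed line.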

How the data were processed

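RNA of 4 undifferentiated and 4 differentiated SHSY5Y samples was measured on 1-colour arrays with biotin label. The deposited log2 values are those the authors obtained with RMA, as implemented in Partek 6.5, and no normalization was added here. Rows with several genes (1752) or none (7807) by the supplied annotation were fitted and adjusted with the rest but not named. For the 685 genes with several rows the row with the highest mean stood for the gene. The rows of 13 called genes number more than 1, and for 1 gene another row had the opposite sign. Genes below the lower quartile of their arrays (25%) were marked as dim; detection calls were not used.

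Samples were grouped by title code and culture condition. A linear model of 4 group means was fitted to all 8 arrays in limma 3.58.1 (R 4.3.3), with variances moderated by eBayes (4 residual and 5.43 prior degrees of freedom; median residual SD 0.0996). Benjamini-Hochberg adjustment ran over all 28869 rows. The 2 arrays per group limit the precision. The methods describe the arrays as biological duplicates, without saying how the cultures were kept apart. With 1 line for each vector, the p-values measure the spread between arrays of a line, not between lines made anew. Across rows, arrays of an NDF group correlated at 0.995 or more and arrays of different lines at 0.993 or less (Spearman). The fit was tested on simulated data. The labels give no scan date or other batch.

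The members and gene lists were chosen with earlier results of these data known. Named genes are the 15 lowest and 15 highest called genes; from each list, every member of lists of up to 8, otherwise up to 6 called members with the largest change and members that define it; the 10 called genes with the largest interaction in each direction; and the 5 called genes nearest the threshold in each direction. A further 45, and SNAI1, THY1, POSTN, PDGFRB and FAP, were named after their values were seen. Chromosomes, gene order, promoters and miRNAs came from RefSeq tables of GRCh38.p14. The miRNAs were matched by symbol and the rest by gene identifier. A promoter was found for 14208 genes. The target of the shRNA and some other genes are not analysed here. Alternatives were no moderation, another prior, normalization, dim filter, row rule, threshold, array weights, fewer arrays and a replicate block.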

Additional observations from a re-analysis of the deposited data

Results flagged for a closer look

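For 57 of the genes named here the difference between the lines in NDF differed from that in DF by the interaction test in limma. The values are the V71 minus PLKO difference in NDF minus that in DF, on the log2 scale, and were not explained. Among genes lower in V71 in NDF, those of matrix, adhesion and secretion were CDH11 at -1.42, TFPI2 at -1.88, ADAMTS19 at -1.62, PRSS12 at -1.48, TNFAIP6 at -1.43, DCN at -0.90, LUM at -1.23, LAMA4 at -1.18, ITGA4 at -1.21, GPC3 at -1.85, TNR at -1.13, CNTNAP5 at -2.08, NPY at -1.44 and FGF7 at -0.78. Those of guidance, signaling and transport were SEMA3C at -2.67, EFNB2 at -2.02, DPYSL3 at -1.96, PDE3A at -2.39, PDE5A at -2.92, GNG11 at -1.77, SGK1 at -2.50, DOCK9 at -0.70, TIAM2 at -1.15, MAP3K1 at -0.70, MAP3K13 at -0.98, LRP4 at -1.07, SCN9A at -1.03, SYT4 at -1.34, RFTN1 at -1.93 and SLC27A6 at -1.21. The others were SNAI2 at -1.11, NOTCH2 at -0.85, TEAD2 at -0.95, FRMD6 at -0.85, NFIB at -0.67, RTL1 at -1.89 and ISOC1 at -1.34. NFIA at -1.39 and PDE10A at -0.97 were not called in NDF and were higher in V71 in DF, by 0.99 and 1.11.

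Among genes higher in V71 in NDF, the value was positive for RERG at 2.16, CNTNAP4 at 1.97, ENC1 at 1.69, CADPS at 2.36, H4C6 at 1.16, SEMA3A at 1.61, EDIL3 at 2.01, INSM2 at 1.05, ADM at 1.54, CHGA at 0.87, SCG2 at 0.89, HAND1 at 0.79, ROBO2 at 1.24, CDH18 at 1.34, KCNG1 at 1.28 and CD9 at 0.71. It was negative for SCG5 at -1.64 and ABCA12 at -1.47, whose difference was larger in DF. Without moderation 1 of the 57, RFTN1, was called, and when 1 NDF array was left out 40 to 46 were called, the fewest without PLKO replicate 3. With the mean of its rows the interaction of KCNG1 was 0.74 (adjusted p = 0.143).

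Rows outside the gene counts were also called in NDF, 44 that carry no gene and 13 that carry several. No gene was named from them.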

How the results depend on the processing

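The counts of 283 lower genes, 113 higher genes and 256 genes with an interaction moved by over 1.5 times under some settings. Without moderation of the variance they were 73, 26 and 3. With a fold of at least 2 they were 93, 40 and 133, and with no fold threshold the first 2 were 433 and 194. At an adjusted p under 0.01 the interaction count was 125. Without 1 NDF array at a time the lower genes ranged from 196 to 253, the higher genes from 71 to 100 and the interaction from 120 to 163; of these, the lower genes stayed within 1.5 times in each fit and the higher genes in all but that without PLKO replicate 3; the lone array left in a group is then assumed to vary like those of the other groups. All other normalizations, priors, filters and row rules kept the 3 counts within 1.5 times. The replicate numbers do not pair the arrays by any label, and same-numbered arrays had correlations of deviations of -0.176 in NDF and 0.188 in DF; with a replicate block the counts were 278, 110 and 190. With the crossed pairing, chosen after seeing the data, they were 270, 105 and 172. Of 128 called genes that are named, 57 kept their call under every planned setting, 71 lost it without moderation, 35 under another setting, and none changed sign under any setting run. The called genes nearest the threshold, from 0.59 in size, were AP2M1, SCN9A, PLEKHH2, SERPINA5 and PDK3 below 0 and DUSP26, GPAM, ZNF776, TOMM22 and C21orf91 above 0, and every one of these lost its call in at least 1 leave-one-out fit. KCNG1 was called at 0.80 from its brightest row and stood at 0.41 with the mean of its rows (adjusted p = 0.193). CNTNAP5 was not called without PLKO replicate 2 (adjusted p = 0.109), without PLKO replicate 3 (adjusted p = 0.0623) or without V71 replicate 2 (adjusted p = 0.083).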
